A study of Mus musculus with 3 samples.

Results

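The genes described here handle haem and iron: Cd163, Hp, Hmox1, Blvrb, Tfrc, Slc11a1, Slc40a1, Fth1 and Ftl1. They were chosen by symbol, and all 9 were found once among the 31053 genes counted. The data were single-cell RNA counts of sorted CD45+ cells, taken from digested gastric muscle of C57bl/6 females. There were 3 libraries, all labelled NonDiabetic, and the labels give 1 group, so comparisons were made between cell classes and macrophage subsets within libraries. The labels give no treatment, no allele and no age, and they do not say whether each library came from its own animal or from a pool. Each p-value for a class or subset therefore weighs a difference within libraries against variation over the libraries tested. The test used, edgeR, estimates that variation for a gene partly from all genes tested. A small p-value thus does not rest on the gene's own few libraries alone. Part of that variation may be technical. Diabetic animals were not analysed here.

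Macrophages that clear old red cells and damaged tissue take in haem bound to carrier proteins, open the haem ring to release iron, and then store the iron in ferritin or send it out of the cell. CD163 is the surface receptor for haemoglobin bound to haptoglobin, the protein made from Hp. Heme oxygenase 1, made from Hmox1, opens haem to biliverdin, carbon monoxide and iron. Biliverdin reductase B, made from Blvrb, reduces a form of biliverdin and also reduces flavins. The transferrin receptor, made from Tfrc, brings iron in from outside the cell, and NRAMP1, made from Slc11a1, moves iron and manganese across the phagosome membrane. Ferroportin, made from Slc40a1, is the exporter of iron, and Fth1 and Ftl1 make the heavy and light chains of the ferritin shell. In many tissues, macrophages with the surface receptor LYVE1 are long-lived resident cells, and those with the chemokine receptor CCR2 are replaced from blood monocytes.

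A group of these mRNAs is controlled after transcription through the iron-responsive element, a short hairpin that binds the iron regulatory proteins. In a 5′ UTR the bound protein blocks translation, and in the 3′ UTR of Tfrc it protects the mRNA from decay. The hairpins are shown because mRNA counts read only the second of these controls. They were searched for in the UTRs of the GENCODE M21 transcripts (GRCm38) as CNNNNNCAGTGN followed by 5 bases that pair with the 5 before the loop, on the transcript strand, with G-T pairs allowed. The capitals mark the 6-base loop. Such a match was present in the 5′ UTR of 31 of 20580 genes (0.151%) and in the 3′ UTR of 129 of 20978 genes (0.615%), and Fth1, Ftl1, Slc40a1 and Tfrc were among them.
Fth1, 5′ UTR, chr19:9982738-9982754, plus strand: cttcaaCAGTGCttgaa
Ftl1, 5′ UTR, chr7:45459785-45459801, minus strand: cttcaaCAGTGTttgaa
Slc40a1, 5′ UTR, chr1:45925471-45925487, minus strand: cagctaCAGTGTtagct
Tfrc, 3′ UTR, chr16:32631225-32631241, plus strand: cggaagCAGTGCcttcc
Tfrc, 3′ UTR, chr16:32631604-32631620, plus strand: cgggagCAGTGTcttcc
Tfrc, 3′ UTR, chr16:32631669-32631685, plus strand: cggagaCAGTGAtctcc
Tfrc, 3′ UTR, chr16:32631716-32631732, plus strand: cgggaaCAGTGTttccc
The 4 matches of Tfrc were the most in any 1 gene, and no other gene had 3 or more in its 3′ UTR. These letters were not in the searched UTRs of Hmox1, Cd163, Hp, Blvrb or Slc11a1.

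The 3 libraries held 881, 2839 and 2015 cell barcodes with 6777422, 13336484 and 11017170 unique molecular identifiers (UMIs, each a counted molecule). Cells with at least 1000 UMIs and at most 15% mitochondrial UMIs were kept, which left 522, 1692 and 1216 cells. They were gated into classes by marker genes that hold none of the 9 genes. These markers set the gates, so their high level in a class is no separate check of it. Macrophages were the largest class with 210, 963 and 749 cells. Conventional dendritic cells numbered 58, 78 and 90, group 2 innate lymphoid cells (ILC2) 108, 168 and 140, and monocyte-like cells 8, 21 and 7. Libraries 2 and 3 shared 33 barcodes, of which 5 and 7 were kept macrophages, and results without the shared barcodes are given in the closing section. Levels below are CPM, a gene's share of the summed UMIs of a class in a library on the usual scale. Each molecule is counted at its 3′ end, so CPM is not scaled by gene length.

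Macrophages held most of the counts of 8 of the 9 genes. Of all counts in gated cells, macrophages gave 87.1%, 97.6% and 95.9% of the Hmox1 counts in libraries 1, 2 and 3. For Cd163 their part was 80.7%, 98.9% and 98.8%. Both exceeded the macrophages' part of all gated UMIs, which was 36.3%, 66.5% and 71.0%. The ferritin chains were spread more widely, with 56.5%, 80.7% and 84.2% of Fth1 counts in macrophages. Hp was the exception, with 1.32%, 6.33% and 10.0% of its counts in macrophages.

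Cd163 (chr6:124304656-124330527) was read at 244, 691 and 574 CPM in macrophages of libraries 1, 2 and 3, against 0 in the monocyte-like cells of every library. Conventional dendritic cells had 95.7, 26.2 and 33.7 CPM of Cd163, and ILC2 had 1.8, 6.4 and 3.3 CPM. Macrophages stood above the other classes in each library, and library 1 was the lowest of the 3 among macrophages. Hmox1 (chr8:75093621-75100589) was read at 569, 730.4 and 769 CPM in macrophages, against 295, 59.4 and 146 CPM in monocyte-like cells. Conventional dendritic cells had 70.4, 57.6 and 139 CPM of Hmox1, and ILC2 had 3.7, 6.4 and 2.2 CPM. The macrophage and monocyte-like ranges of Hmox1 did not overlap, although monocyte-like cells of library 1 reached more than those of the other libraries. In library 1, however, 20 of the 24 monocyte-like counts of Hmox1 (83.3%) stood in 1 of the 8 cells, and its level was 61.1 CPM without that cell. The highest cell held 57.1% of the counts in library 2 and 44.4% in library 3.

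Hp (chr8:109575128-109579172), the carrier of free haemoglobin, ran the other way. It had 1, 5 and 3 counts in all macrophages of libraries 1, 2 and 3, against 62, 36 and 8 counts in the few monocyte-like cells. These came to 0.5, 0.8 and 0.5 CPM in macrophages and 761, 153 and 129.9 CPM in monocyte-like cells. All 8 counts of library 3 stood in 1 of its 7 monocyte-like cells, and the highest single cell held 40.3% and 33.3% of the counts in libraries 1 and 2. Summed CPM of the 8 granulocyte markers in the monocyte-like cells was 270, 72.1 and 16.2, in the same order of libraries as Hp, and its part in the Hp level was not tested. Hp had 1784, 2976 and 1702 CPM in cells gated as granulocytes, which numbered only 1, 4 and 2. Fibroblasts had 8, 0 and 12 counts of Hp, or 12.3, 0 and 111 CPM, and 9 of the 12 in library 3 stood in 1 of its 10 fibroblasts.

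Blvrb (chr7:27447978-27466144) was read at 112, 229 and 253 CPM in macrophages, against 24.6, 97.6 and 97.4 CPM in monocyte-like cells. Conventional dendritic cells had 9.0, 17.2 and 12.4 CPM of Blvrb, and ILC2 had 10.2, 22.9 and 25.2 CPM. Fibroblasts, the stromal cells that came through the sort, had 41.6, 90.7 and 102 CPM. For Blvrb the low library among macrophages was again library 1.

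The iron importers split. Tfrc (chr16:32608920-32632794) was read at 159, 83.3 and 64.4 CPM in macrophages, against 0, 8.5 and 16.2 CPM in monocyte-like cells. Conventional dendritic cells had 34.3, 20.2 and 22.2 CPM of Tfrc, and ILC2 had 18.5, 26.5 and 8.8 CPM. Here library 1 was the highest among macrophages, unlike for Cd163, Hmox1 and Blvrb. Slc11a1 (chr1:74375195-74386062) was read at 118, 125 and 94.3 CPM in macrophages and at 209, 106 and 114 CPM in monocyte-like cells, so the 2 classes overlapped. Conventional dendritic cells had 9.9, 6.7 and 5.3 CPM of Slc11a1, and ILC2 had 4.6, 1.8 and 0 CPM.

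Slc40a1 (chr1:45908068-45926523) is the exporter. It had 10.8, 23.0 and 41.8 CPM in macrophages, against 0 in monocyte-like cells and in conventional dendritic cells of every library. ILC2 had 0, 0.9 and 1.1 CPM of Slc40a1, and fibroblasts had 16.9, 0 and 18.5 CPM.

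Ferritin was read in every class. Fth1 (chr19:9980598-9985098) had 4940.0, 8944 and 8336 CPM in macrophages, against 2566, 9367 and 6056 CPM in monocyte-like cells. Conventional dendritic cells had 2905, 4937 and 5003 CPM of Fth1, and ILC2 had 1179, 2001 and 1998 CPM. Ftl1 (chr7:45457944-45459884) had 2907, 5554 and 5485 CPM in macrophages, against 2603, 4817 and 3799 CPM in monocyte-like cells. Both chains were lowest in library 1 in all 4 classes. Fth1 and Ftl1 together made up 0.785%, 1.45% and 1.38% of all macrophage UMIs, against 0.437%, 0.880% and 0.741% in conventional dendritic cells and 0.164%, 0.296% and 0.281% in ILC2. Macrophages held 1.70, 1.61 and 1.52 Fth1 counts per Ftl1 count in the 3 libraries. Ftl1-ps1, a processed copy nearly identical to Ftl1, was counted as its own gene, so reads of the 2 may have been split between them.

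**Figure D1:**
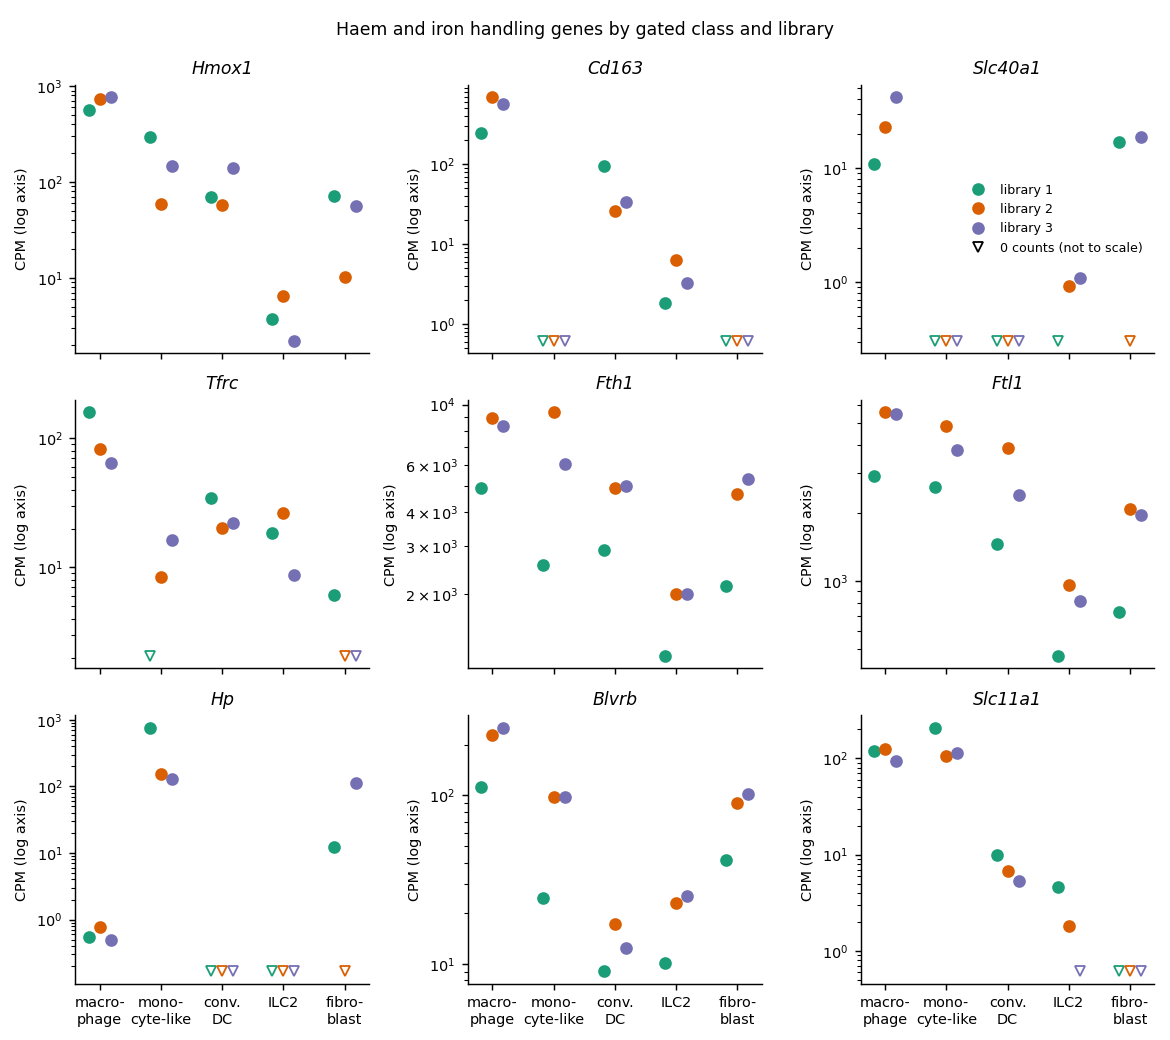
Level of each of the 9 genes in CPM of summed counts (log axis) in macrophages, monocyte-like cells, conventional dendritic cells, ILC2 and fibroblasts, with 1 point per library; open triangles mark libraries with 0 counts and are not to scale. The macrophage points of Hmox1, Cd163 and Slc40a1 lie above those of dendritic cells and ILC2, and the Hp points lie highest in monocyte-like cells.

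Against monocyte-like cells, macrophages were called higher in Hmox1, which opens the haem ring, and in Blvrb, which encodes biliverdin reductase B. Tfrc, which brings in iron, was also called higher, but with only 3 counts in monocyte-like cells. Cd163 and Slc40a1 had no counts in monocyte-like cells, and nearly all Hp counts of the 2 classes were there. These cells were compared to ask whether the genes separate tissue macrophages from cells close to blood monocytes. Counts were summed per library and class and tested for all genes with edgeR's quasi-likelihood test, blocked by library, with p-values adjusted after Benjamini and Hochberg, and a gene was called at an adjusted p under 0.05. Of 7755 genes tested, 8.33% were called, 5.43% higher and 2.9% lower, and of the 9 genes 5 were called higher and 1 lower. Cd163 and Slc40a1 passed the filter on low counts only through macrophages and Hp only through monocyte-like cells, so these 3 had to differ and their values are given as a description. Of the other 6, Hmox1, Blvrb and Tfrc were called higher. Hmox1 and Blvrb were above the cutoff of the filter in all 3 monocyte-like profiles. Tfrc was above it in only 1 of the 3, so the macrophage profiles alone let it pass. Its values are therefore also given as a description. Hmox1 averaged 689 ± 106 CPM in macrophages and 167 ± 119 CPM in monocyte-like cells (SD, n = 3 each), a log2 fold change of 2.38 ± 0.37 (SE, edgeR adjusted p = 0.000283). The spread among monocyte-like cells holds the 1 cell of library 1 described above. Hp was lower in macrophages in 3 of 3 libraries, with 9 counts in macrophages and 106 in monocyte-like cells.

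Cd163 had 8437 counts in macrophages and none in monocyte-like cells, and was at least 73.8-fold higher in macrophages when the monocyte-like sum was set to a floor of 3 counts over the group. Slc40a1 also had none in monocyte-like cells and was at least 3.69-fold higher against the same floor. Tfrc had 3 counts in monocyte-like cells, and the ratio of summed CPM was 10.7, with a counting interval of 3.67 to 52.2. Its edgeR adjusted p of 0.000973 rests on these 3 counts. Blvrb was higher by 1.48 ± 0.35 on the log2 scale (edgeR adjusted p = 0.00965).

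Slc11a1, Fth1 and Ftl1 were not called. Their log2 fold changes were −0.17 ± 0.32, 0.54 ± 0.22 and 0.40 ± 0.19, with edgeR adjusted p of 0.838, 0.145 and 0.256. The median over all genes tested was 0.22 in this comparison and 0.18 with another scaling, so values near these do not stand apart from the bulk of genes. The comparison rests on 8, 21 and 7 monocyte-like cells, under the planned minimum of 20 cells, and the lower minimum of 5 was set after seeing the cell numbers. Blvrb was not called without library 3 (edgeR adjusted p = 0.0674), without the library block (0.0941) or in cells thinned to 1000 UMIs (0.0607). Slc40a1 was not called without library 2 (edgeR adjusted p = 0.310), without library 3 (0.147), without the block (0.102), with a stricter gate (0.129) or with DESeq2 (0.0991).

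The genes of uptake and storage around these 9 moved in part. Of 10 tested genes on the list of iron uptake, storage and export, 4 were higher in macrophages and 0 lower, beside 5.43% higher and 2.9% lower over all genes. The largest changes among genes with more than 3 counts in each class were in Ncoa4, which targets ferritin for breakdown, with a log2 fold change of 2.11, Trf, which encodes transferrin, with 1.93, and Slc11a2, the divalent metal importer, with 1.82. None of 5 tested genes of haem synthesis was called, 0 of 6 of haem uptake and breakdown was higher and 1 lower (Tspo, −0.94), and 0 of 8 of regulation was higher and 1 lower (Hif1a, −1.32). Genes known to be induced by tissue digestion, a list of 20 such as Fos and Hspa1a, were called higher in macrophages for 14 and lower for 1. Their summed level was 31674, 29971 and 37686 CPM in macrophages, against 16696, 11450 and 12192 CPM in monocyte-like cells. Hmox1 is itself known to respond to cell stress, and the part of digestion in its level was not tested.

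Against conventional dendritic cells, macrophages were called higher in Hmox1, Cd163, Blvrb, Tfrc, Fth1 and Ftl1. Slc11a1 was called higher as well, but it was above the cutoff of the filter in only 2 of the 3 dendritic profiles. Its macrophage profiles alone let it pass, so its values are given as a description. With Slc11a1, 7 of the 9 genes were called higher, and none was called lower. Over all 8780 genes tested, 39.6% were called, 20.7% higher and 18.9% lower. Slc11a1 had a log2 fold change of 3.76 ± 0.23, Blvrb of 3.70 ± 0.21, Cd163 of 3.1 ± 0.44 and Hmox1 of 2.83 ± 0.22. Slc40a1 had 422 counts in macrophages and 0 in dendritic cells, and was at least 34.8-fold higher against a floor of 3 counts over the group. It passed the filter on low counts through its macrophages only and is not counted among the 7. Tfrc was higher by 1.77 ± 0.20, and the ferritin chains by 0.59 ± 0.15 for Fth1 and 0.70 ± 0.18 for Ftl1 (edgeR adjusted p = 0.00712 and 0.00594). Hp had 9 counts in macrophages and 0 in dendritic cells and was not tested. The calls for Fth1 and Ftl1 were lost without library 3, with adjusted p of 0.170 and 0.201, and without the library block, with 0.350 and 0.375.

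Against ILC2, a lymphoid class not known for clearing haem, Tfrc, Fth1, Ftl1 and Blvrb were called higher in macrophages, and none of the 9 genes was called lower. Over all 8911 genes tested, 54.4% were called, 29% higher and 25.4% lower. Hmox1, Cd163, Slc11a1 and Slc40a1 passed the filter on low counts through macrophages only, so their values are a description. Hmox1 had a log2 fold change of 7.12 ± 0.28, Cd163 of 6.75 ± 0.27 and Slc11a1 of 5.44 ± 0.36, against 13, 12 and 7 counts of these genes in all ILC2. Slc40a1 had 2 counts in ILC2, and its ratio of summed CPM was 45.2, with a counting interval of 12.4 to 374. Blvrb was higher by 3.12 ± 0.20 and Tfrc by 2.26 ± 0.28. Fth1 was higher by 1.88 ± 0.16 and Ftl1 by 2.43 ± 0.17. This comparison shares its macrophages with that against dendritic cells, and the difference between the 2 was not tested. Hp was again not tested, with 0 counts in ILC2.

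On the list of iron uptake, storage and export, 7 of 10 tested genes were higher and 0 lower against dendritic cells and 9 of 10 were higher and 0 lower against ILC2. The shares on this and the other lists are to be read against the 20.7% of all genes higher and 18.9% lower against dendritic cells, and the 29% higher and 25.4% lower against ILC2. Against dendritic cells the named genes were Steap3, an endosomal ferrireductase (2.46), Blvra, the other biliverdin reductase (1.48), and Slc11a2 (1.41), all higher, and Slc25a38 (−1.29), Tspo (−1.17) and Hfe (−1.12), all lower. Against ILC2 they were Lrp1, the receptor for haem bound to hemopexin (6.50), Trf (6.25) and Cp, the ferroxidase ceruloplasmin (5.56), all higher, and Epas1 (−3.57), Alad (−1.25) and Slc25a38 (−1.13), all lower. Of haem synthesis, 2 of 8 tested genes were higher and 1 lower against dendritic cells, and 1 of 8 was higher and 2 lower against ILC2, near or below the shares over all genes. For haem uptake and breakdown, 3 of 6 were higher and 1 lower against dendritic cells, and 5 of 7 were higher and 0 lower against ILC2. For regulation, 3 of 8 were higher and 1 lower against dendritic cells, and 6 of 9 were higher and 1 lower against ILC2. Digestion genes moved in both directions, with 8 of 20 higher and 6 lower against dendritic cells and 10 of 20 higher and 7 lower against ILC2.

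Among macrophages, those with Lyve1 were called higher in Cd163, Hmox1, Blvrb and Tfrc and lower in Fth1 and Ftl1, while Slc11a1 was not called. Slc40a1 was called higher too, but only 2 of its 3 Lyve1-negative profiles were above the cutoff of the filter. Its Lyve1-positive profiles alone let it pass, so its values are given as a description. Macrophages with at least 2 Lyve1 UMIs numbered 73, 355 and 347 in libraries 1, 2 and 3, and those with none numbered 125, 475 and 345. Cells with 1 Lyve1 UMI were left out. Over all 9921 genes tested, 24.9% were called, 12.1% higher and 12.8% lower in Lyve1-positive cells. Of the 9 genes 5 were called higher and 2 lower, 1 was not called and Hp was not tested.

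Cd163 was read at 612, 1221 and 971 CPM in Lyve1-positive macrophages, against 100, 229.9 and 179 CPM in Lyve1-negative macrophages. Its ranges did not overlap, and the log2 fold change was 2.34 ± 0.12 (edgeR adjusted p = 6.43e-07). Hmox1 was read at 906, 1086 and 1032 CPM in Lyve1-positive macrophages, against 436, 433 and 531 CPM in Lyve1-negative macrophages. The ranges of Hmox1 were apart as well, with a log2 fold change of 0.98 ± 0.12 (edgeR adjusted p = 0.000108). Blvrb had 203, 319 and 351 CPM in Lyve1-positive cells, against 80.2, 155 and 149 CPM in Lyve1-negative cells, a log2 fold change of 1.04 ± 0.12 (edgeR adjusted p = 9.69e-05).

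The same direction held for both surface carriers of iron. Tfrc was read at 296, 144 and 113 CPM in Lyve1-positive macrophages, against 94.5, 32.5 and 17.3 CPM in Lyve1-negative macrophages (log2 fold change 2.00 ± 0.17, edgeR adjusted p = 1.07e-05). Slc40a1 was read at 29.6, 40.8 and 78.0 CPM in Lyve1-positive macrophages, against 4.0, 6.4 and 0.7 CPM in Lyve1-negative macrophages. Its summed counts were 359 in Lyve1-positive and 27 in Lyve1-negative cells, with a log2 fold change of 3.62 ± 0.44 (edgeR adjusted p = 0.000134). That was the largest among the genes tested, but it is a description, since the Lyve1-positive profiles alone let Slc40a1 pass the filter. Library 1 was the highest for Tfrc and the lowest for Slc40a1 among Lyve1-positive cells.

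The ferritin chains went the other way. Fth1 had 4103, 7648 and 6677 CPM in Lyve1-positive macrophages, against 5377, 9960 and 10032 CPM in Lyve1-negative macrophages. It was lower in 3 of 3 libraries, while the ranges over libraries overlapped, and its log2 fold change was −0.59 ± 0.10 (edgeR adjusted p = 0.00117). Ftl1 had 2401, 4967 and 5249 CPM in Lyve1-positive cells, against 3150.3, 5931 and 5677 CPM in Lyve1-negative cells, with a log2 fold change of −0.39 ± 0.10 (edgeR adjusted p = 0.0134). Neither chain was called without library 3 (adjusted p = 0.0571 and 0.0994) or in cells thinned to 1000 UMIs (0.0582 and 0.357), and Ftl1 was not called without library 2 (0.195). Without the library block neither chain was called (adjusted p = 0.473 for Fth1), nor were Tfrc (0.0513) and Blvrb (0.0962). Slc11a1 was not called, with 120.4, 118 and 87.8 CPM in Lyve1-positive cells and 116, 131 and 103 CPM in Lyve1-negative cells (log2 fold change −0.27 ± 0.12, edgeR adjusted p = 0.129). Hp had 0 counts in Lyve1-positive macrophages and 7 in Lyve1-negative macrophages.

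**Figure D2:**
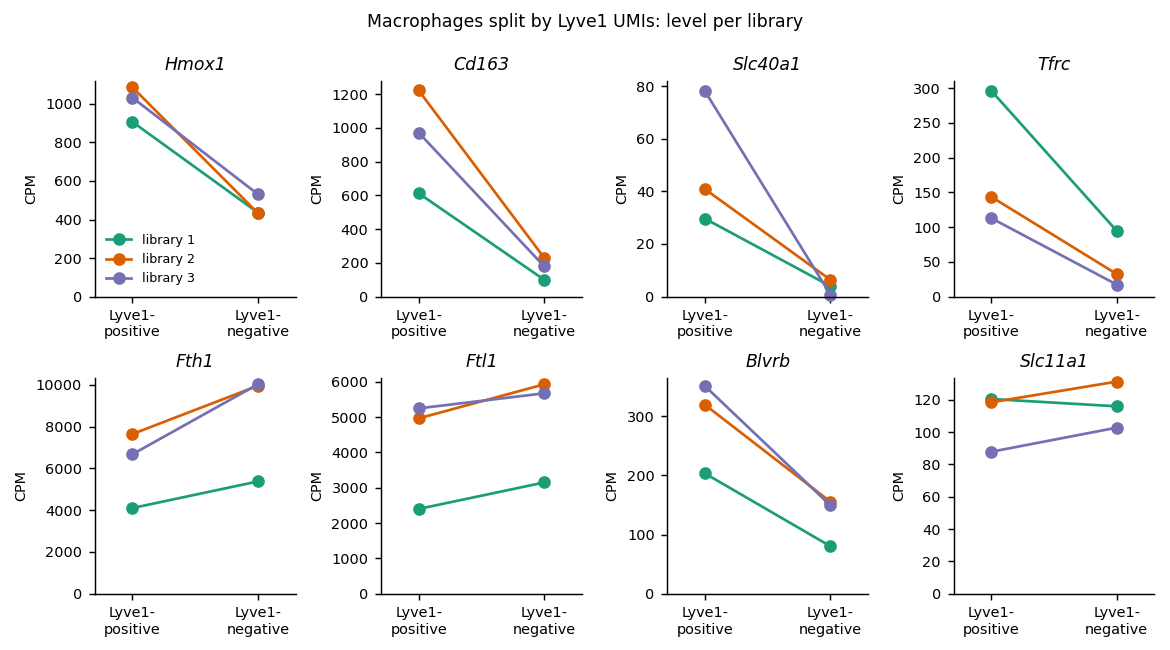
CPM of summed counts in Lyve1-positive (left) and Lyve1-negative (right) macrophages for 8 of the genes, with a line joining the 2 values of each library. Every line of Cd163, Hmox1, Blvrb, Tfrc and Slc40a1 is higher at the Lyve1-positive end, and every line of Fth1 and Ftl1 is lower there.

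On the list of iron uptake, storage and export, 6 of 12 tested genes were higher and 0 lower, with a median log2 fold change of 0.64 over the list, against 0.00 over all genes tested and 12.1% of all genes called higher. Cp was read at 116, 128 and 176 CPM in Lyve1-positive macrophages, against 20.6, 26.4 and 25.9 CPM in Lyve1-negative macrophages (log2 fold change 2.36 ± 0.15). Ceruloplasmin oxidises the iron that ferroportin passes out. Steap4, a metalloreductase, was higher by 2.00 ± 0.67. Spic, which encodes a transcription factor of red-pulp and bone marrow macrophages, was the 1 of 9 tested regulation genes called, with 23.7, 44.6 and 21.6 CPM in Lyve1-positive cells and 13.5, 9.2 and 4.7 CPM in Lyve1-negative cells (log2 fold change 1.80 ± 0.27). Of 8 tested genes of haem uptake and breakdown 0 were higher and 2 lower, Tspo (−0.91) and Lrp1 (−0.37), and none of 9 of haem synthesis was called.

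Several measures moved with the Lyve1 gate. Median UMIs per cell were 5873, 8246 and 8145 in Lyve1-positive cells, against 9507, 3676 and 7825 in Lyve1-negative cells, so the deeper group was not the same in every library. Summed digestion genes were at 38041, 33085 and 42095 CPM in Lyve1-positive cells, against 28918, 27449.6 and 33964 CPM in Lyve1-negative cells, with 6 of 20 called higher and 1 lower. The 8 granulocyte markers summed to 146, 177 and 218 CPM in Lyve1-positive cells, against 102, 61.1 and 37.5 CPM in Lyve1-negative cells. Fewer of the 8 were detected on the Lyve1-positive side, 3, 6 and 4 against 4, 7 and 6 in Lyve1-negative cells. The 8 smooth muscle markers summed to 103, 216 and 259 CPM in Lyve1-positive cells, against 29.4, 121 and 120.0 CPM in Lyve1-negative cells. The part of each in the results was not tested.

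Within Lyve1-positive macrophages, 1 of the 9 genes was called between cells with and without Timd4, a phosphatidylserine receptor of long-lived resident macrophages. These were 24, 118 and 163 Timd4-positive cells and 49, 237 and 184 Timd4-negative cells. Tfrc was read at 468, 191 and 149.6 CPM in Timd4-positive cells, against 227, 118 and 77.7 CPM in Timd4-negative cells, with a log2 fold change of 0.84 ± 0.13 (edgeR adjusted p = 0.00484). It was higher in 3 of 3 libraries, but the ranges overlapped and the call was lost without library 3 (adjusted p = 0.333), with DESeq2 (0.0586), without the library block (1.00) and in cells thinned to 1000 UMIs (0.561). Over all 8185 genes tested, 1.04% were called, 0.464% higher and 0.574% lower.

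Cd163 was read at 970.0, 1437 and 1044 CPM in Timd4-positive cells and at 468, 1106 and 901 CPM in Timd4-negative cells (log2 fold change 0.46 ± 0.15, edgeR adjusted p = 0.270). It was the next in size after Tfrc and was not called. Hmox1 had 749.8, 1415 and 1081 CPM in Timd4-positive cells and 969, 910.2 and 984 CPM in Timd4-negative cells, so library 1 differed in direction from the other 2. Slc40a1, Blvrb, Slc11a1, Fth1 and Ftl1 had log2 fold changes between −0.13 and 0.07, none of them called. None of the genes on the 4 related lists was called by edgeR either, and 3 of them, Ncoa4, Cp and Blvra, had an unadjusted p under 0.05.

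Among Lyve1-negative macrophages, Cd163 was lower in cells with Ccr2 than in cells with Cx3cr1, the fractalkine receptor, and no Ccr2. The test used libraries 2 and 3, with 212 and 196 Ccr2-positive cells and 47 and 88 Cx3cr1-positive cells, since library 1 held only 18 of the second kind. Median UMIs in these libraries were 10639.5 and 9042 in Ccr2-positive cells, against 8129 and 7179.5 in Cx3cr1-positive cells. A cell counted as Ccr2-positive at 1 UMI, and the part of depth in the gate was not tested. Cd163 was read at 135 and 122 CPM in Ccr2-positive cells of libraries 2 and 3, against 307 and 318 CPM in Cx3cr1-positive cells. Library 1, outside the test, had 70.4 CPM in Ccr2-positive cells against 178 CPM in Cx3cr1-positive cells, the same direction. The log2 fold change of Cd163 was −1.29 ± 0.16 (edgeR adjusted p = 0.00355), and of 8140 genes tested 1.79% were called, 0.885% higher and 0.909% lower. The call was lost without the library block (adjusted p = 0.148) and in cells thinned to 1000 UMIs (adjusted p = 0.460).

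Blvrb was at 124 and 120.7 CPM in Ccr2-positive cells, against 225 and 189 CPM in Cx3cr1-positive cells, and was not called (log2 fold change −0.75 ± 0.18, edgeR adjusted p = 0.0620). Hmox1 was not called, with 361 and 537 CPM in Ccr2-positive cells and 426 and 466 CPM in Cx3cr1-positive cells (log2 fold change −0.01 ± 0.17). Slc11a1 (−0.55 ± 0.18), Tfrc (−0.30 ± 0.44), Ftl1 (−0.14) and Fth1 (−0.10) were not called. Slc40a1 had 3 counts in Ccr2-positive cells and 5 in Cx3cr1-positive cells and, like Hp, was not tested. Cp (−2.72) was the 1 gene of the 4 related lists that was called.

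Macrophages with none of Lyve1, Ccr2 and Cx3cr1 held 1 value far from the rest. Tfrc stood at 1312 CPM in the 17 such cells of library 1, against 76.0 and 16.3 CPM in the 216 and 61 cells of libraries 2 and 3. The level in library 1 came from 63 counts in 58.8% of the cells, with 13 counts in the highest cell, and was 1226 CPM without that cell. These cells were shallow, with median UMIs of 2139, 1288 and 2379, and no comparison was made with them.

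**Figure D3:**
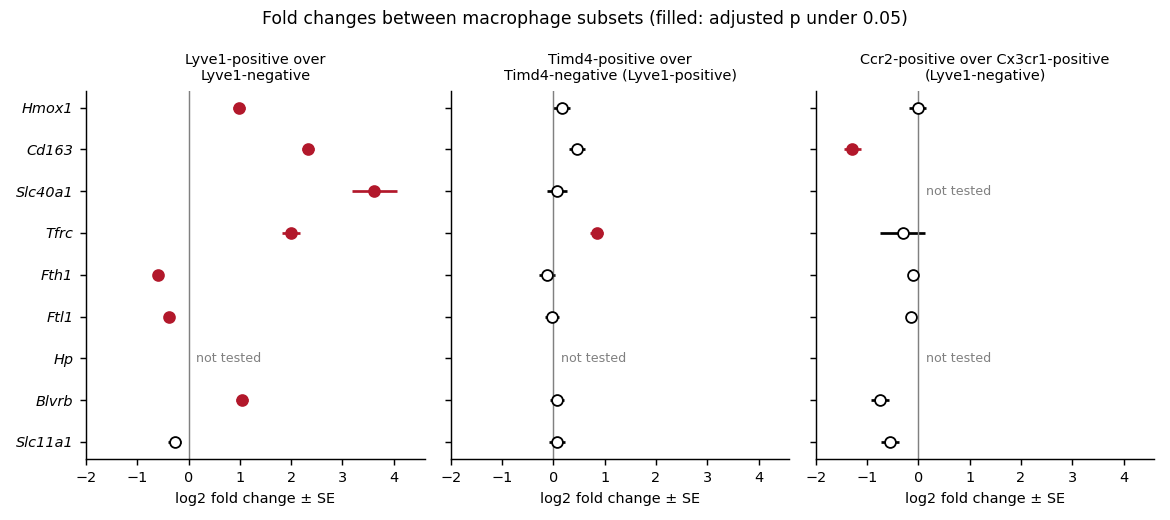
Log2 fold change ± SE from edgeR for each gene tested, in Lyve1-positive against Lyve1-negative, Timd4-positive against Timd4-negative and Ccr2-positive against Cx3cr1-positive macrophages, with called genes filled. Calls are 7 in the first comparison, Tfrc alone in the second and Cd163 alone in the third.

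Detection per cell was compared after drawing 1000 UMIs from each cell, and no kept cell was too shallow for this. Hmox1 was then found in 35.2%, 41.7% and 37.4% of macrophages, with exact 95% intervals of 28.8 to 42.1, 38.6 to 44.9 and 33.9 to 41.0. Without thinning, it was found in 75.2%, 72.6% and 75.7%. In ILC2, which should hold little of it, Hmox1 was found in 0 of 108, 1 of 168 and 1 of 140 thinned cells. For 0 of 108 a floor of 3 cells was set, not an exact interval, which is a share of 2.78% with a UMI at this depth. Without thinning, 3.70%, 4.17% and 1.43% of ILC2 held an Hmox1 UMI. Median UMIs before thinning were 7243, 5950.0 and 7878 in macrophages and 8929, 6642 and 6334 in ILC2. Intervals and floors cover counting error only.

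Over the 3 libraries, thinned macrophages held Cd163 in 32.0% ± 6.5 of cells, Blvrb in 15.9% ± 6.5, Tfrc in 11.6% ± 7.3, Slc11a1 in 10.4% ± 4.3 and Slc40a1 in 2.65% ± 1.51 (SD, n = 3). In ILC2 the shares were 0.437% ± 0.383 for Cd163, 2.90% ± 2.86 for Blvrb, 0.437% ± 0.383 for Tfrc, 0.309% ± 0.535 for Slc11a1 and 0.238% ± 0.412 for Slc40a1. Every share in macrophages was above that in ILC2. Conventional dendritic cells were between the 2 for Hmox1 (6.56% ± 4.03) and Cd163 (3.69% ± 1.34). Fth1 was found in 94.2% ± 4.6 of macrophages and in 72.2% ± 12.8 of ILC2, and Ftl1 in 91.0% ± 8.3 of macrophages and in 50.7% ± 12.2 of ILC2. Hp was found in 1 of the 1922 macrophages.

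The share of cells with a UMI was higher in Lyve1-positive macrophages in the mean for 5 of these genes, the same 5 that were called higher in level. Cd163 was found in 50.4% ± 4.9 of thinned Lyve1-positive cells, against 17.3% ± 5.3 of Lyve1-negative cells (SD, n = 3 each). Hmox1 was found in 46.6% ± 3.4 of Lyve1-positive and 31.0% ± 2.9 of Lyve1-negative cells, Blvrb in 24.1% ± 5.7 of Lyve1-positive and 10.1% ± 5.3 of Lyve1-negative cells, and Tfrc in 16.6% ± 9.3 of Lyve1-positive and 7.44% ± 6.33 of Lyve1-negative cells. Slc40a1 was found in 4.62% ± 1.81 of Lyve1-positive cells and 0.632% ± 1.09 of Lyve1-negative cells. Slc11a1 was found in 7.98% ± 3.39 of Lyve1-positive cells and 12.1% ± 4.5 of Lyve1-negative cells, and its level was not called. These shares come from the same cells as the levels and are no separate test.

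**Figure D4:**
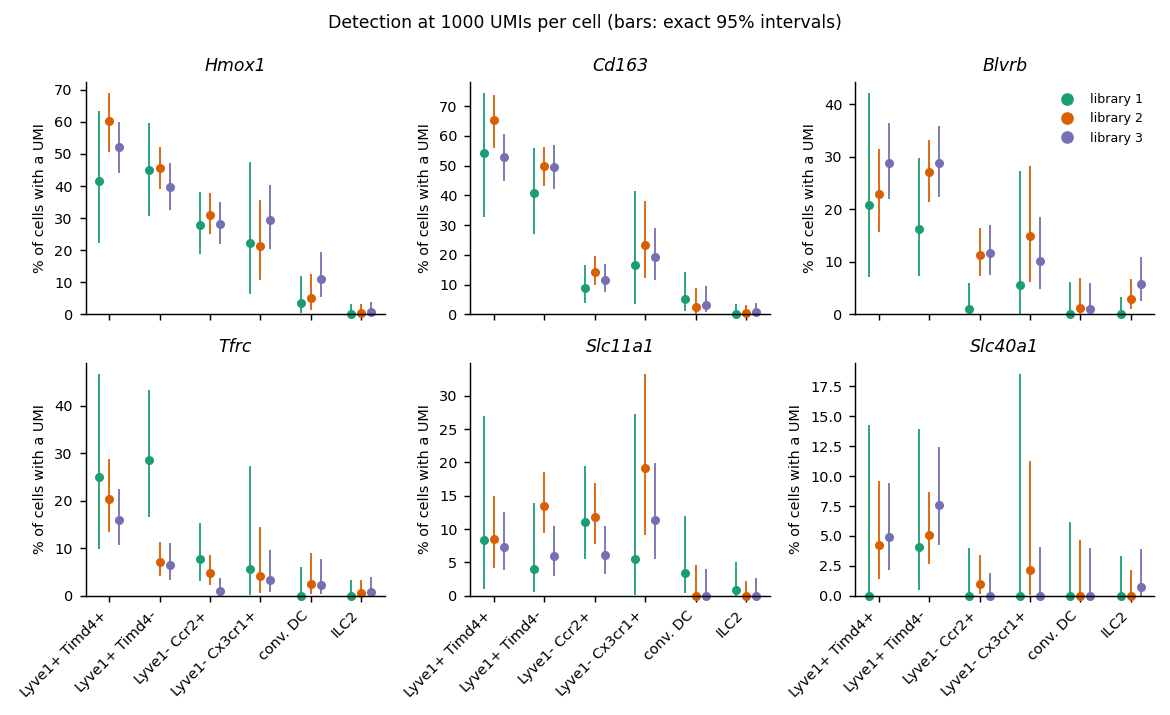
Share of cells with at least 1 UMI after thinning each cell to 1000 UMIs, for 6 genes in 6 groups of cells, with 1 point per library and exact 95% binomial intervals as bars. Cd163 is found in a mean of 57.4% of Timd4-positive and 46.7% of Timd4-negative cells among Lyve1-positive macrophages. Among Lyve1-negative macrophages the mean is 11.6% of Ccr2-positive cells over 3 libraries and 21.4% of Cx3cr1-positive cells over libraries 2 and 3 only. These 2 means cover unlike sets of libraries.

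Within a library, single macrophages varied widely. Hmox1 had a median per cell of 303, 393 and 302 CPM in libraries 1, 2 and 3, while the cell at the 90th percentile had 1933, 1925 and 2709 CPM. Cd163 had a median of 0, 230.0 and 264 CPM. At 1000 UMIs, none of the 7 genes other than Fth1 and Ftl1 was found in 21.9%, 15.8% and 15.6% of Lyve1-positive cells, against 49.6%, 36.6% and 49.0% of Lyve1-negative cells. At least 3 of the 7 were found together in 16.4%, 19.2% and 14.1% of Lyve1-positive cells, against 2.4%, 6.95% and 3.19% of Lyve1-negative cells.

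Of the 10 pairs of Hmox1, Cd163, Tfrc, Blvrb and Slc11a1, 6 had a log2 odds ratio of being found in the same macrophage above 0 in all 3 libraries, 1 had it below 0 in all 3, and 3 were mixed. The ratio was computed per library in the 1922 thinned macrophages, with 0.5 added to each entry of the 2 by 2 table of cells. It rests on 1 draw of UMIs per cell, and so do these signs. Pairs of other genes were not computed, so whether 6 of 10 is more than among them is not known. The 5 pairs with Slc40a1 rest on 4 to 29 cells that held both genes. For 4 of these 5 the table of some library had an entry of 0, where the sign can come from the added 0.5, so no count is made of them. Slc40a1 and Blvrb, for example, were never found together in library 1. Of the 21 pairs of the 7 genes, the 6 with Hp were not computed, since only 1 macrophage held it. With 3 libraries the exact two-sided sign-flip test cannot give a p under 0.25, and the smallest adjusted over 15 pairs was 0.375, so no pair could pass a threshold.

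Hmox1 and Cd163 were both found in 314 macrophages, with log2 odds ratios of 0.73, 0.80 and 0.56 and a mean of 0.70 ± 0.13 (SD, n = 3 libraries). Cd163 and Blvrb were both found in 154 cells, with a mean of 0.79 ± 0.27. Hmox1 and Tfrc were both found in 95 cells (1.01 ± 0.52), and Cd163 and Tfrc in 77 (0.96 ± 0.42). Hmox1 and Blvrb, both found in 142 cells, had a mean of 0.21 ± 0.43 with 1 library below 0. Blvrb and Slc11a1, both found in 35 cells, were the pair below 0 in every library (−0.26 ± 0.10), but their mean was above 0 at 2000 UMIs (0.41), with doublets removed (0.48), without shared barcodes (0.65) and in cells with at least 3000 UMIs (0.37). Cd163 and Slc11a1 were above 0 in every library, with a mean of 0.30 ± 0.14. That mean was below 0 at 500 UMIs (−1.04), at 2000 UMIs (−0.43), with doublets removed (−0.38), with at most 10% mitochondrial UMIs (−0.063), without shared barcodes (−0.27) and in cells with at least 3000 UMIs (−0.73). For both pairs with Slc11a1, each of these settings also drew the UMIs anew. The part of the new draw in these changes was not tested. Hmox1 and Slc40a1 were both found in 29 cells (1.34 ± 1.67).

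The pairs were also computed within each Lyve1 subset. Of the 10 pairs without Slc40a1, 3 were above 0 in all 3 libraries within Lyve1-positive cells and 6 were within Lyve1-negative cells, and the others were mixed. Hmox1 and Cd163 had 0.52 ± 0.24 within Lyve1-positive cells and 0.36 ± 0.23 within Lyve1-negative cells. Cd163 and Blvrb had 0.06 ± 0.29 within Lyve1-positive cells and 0.84 ± 0.31 within Lyve1-negative cells. The difference between the subsets was not tested.

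**Figure D5:**
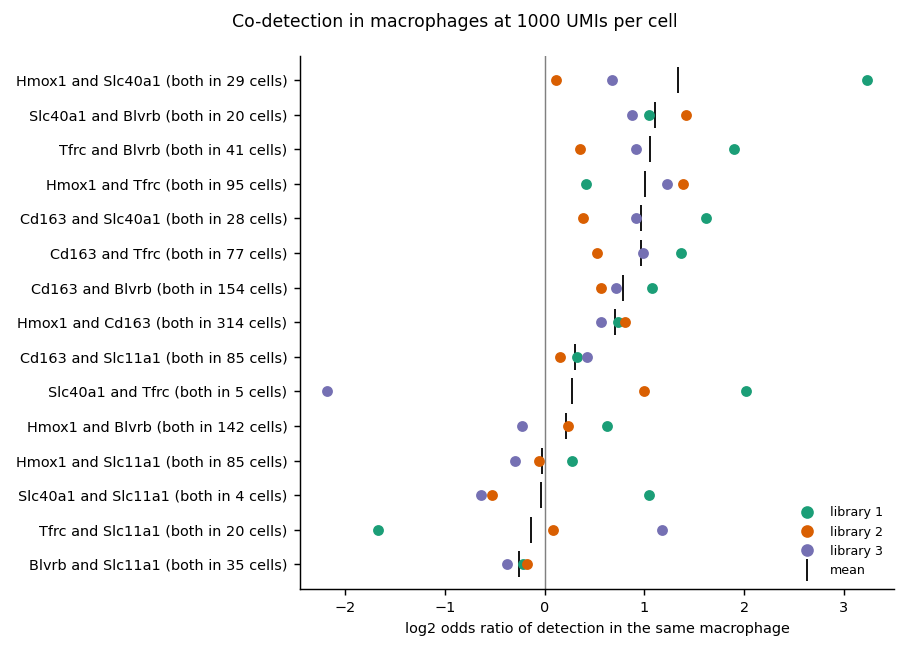
Log2 odds ratio of finding both genes of a pair in a macrophage thinned to 1000 UMIs, with 1 point per library and a tick at the mean, for 15 pairs. Values above 0 mean that the pair was found together more often than the separate shares give; all 3 points lie above 0 for 6 of the 10 pairs without Slc40a1 and below 0 for Blvrb and Slc11a1, and the pairs with Slc40a1 rest on 4 to 29 cells.

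Across the 15 profiles of a class in a library with at least 20 cells, the genes most like each of the 9 were listed by Pearson correlation of log2(CPM + 1), among 2800 genes with a mean of at least 50 CPM. The profiles share their libraries and depth, so these are descriptions. Hmox1 was most like Myo5a (0.93), followed by Grn, Hexa, Asah1 and Atp6ap2, of which Grn, Hexa and Asah1 encode lysosomal proteins. Cd163 was most like Fcrls (0.92), an Fc receptor-like gene of macrophages, then Atf3, Eps15, Snx5 and Retnla. Slc40a1 was most like Gas6 (0.92), then C4b, Col14a1, Igfbp4 and Rnase4. Only 1 of the 15 profiles was of fibroblasts, from library 1, with 16.9 CPM of Slc40a1 against 10.8 CPM in macrophages there. Its part in this order was not tested. Tfrc was most like Mtss1 (0.84), then Zcchc6, Dip2b, Gdf15 and Retnla. Blvrb was most like Cebpb (0.89), then Abca1, Ccl2, Glmp and Ugcg.

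Slc11a1 was most like Tmem189 (0.84), then Lst1, Ninj1, Sgpl1 and Ctsc. Hp was most like Thbs1 (0.83), then Prdx5, C3, Sra1 and Mxi1, and only 1 of the 15 profiles was of monocyte-like cells. Fth1 was most like Bri3 (0.93), then Lst1, Atp6v0b, Gng5 and Ftl1-ps1. Ftl1 was most like Ftl1-ps1 (0.94), then Atp6v0b, Vdac1, Snx3 and Fcer1g. Among the 9 themselves, Fth1 and Ftl1 were the closest pair (0.92), followed by Cd163 and Tfrc (0.78), Ftl1 and Slc11a1 (0.73), Hmox1 and Ftl1 (0.72) and Hmox1 and Cd163 (0.69).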

How the data were processed

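Per the labels' protocols, CD45+ cells were sorted after collagenase II digestion and made into Chromium Single Cell 3′ v3 libraries. The deposited values are raw counts of UMIs per gene and barcode. Per the submitters' processing notes, Cell Ranger 3.1 and mm10 were used, and the file headers give Cell Ranger 3.0.0 for library 1 and 3.1.0 for libraries 2 and 3.

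The genes, lists, gates and alternatives were chosen with earlier results of these data known. The gate thresholds were set after looking at marker genes and cell numbers only. Macrophages had at least 3 C1qa, C1qb and C1qc UMIs in sum and at least 8 per 10000, at least 3 of 8 markers and a lead of at least 2 markers over any other class. Other classes had the same marker rule and less C1q. Other subset genes counted as present at 1 UMI. No doublets were removed in the main results. Ungated cells entered no comparison.

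Counts were summed per library and class and tested with edgeR 4.0.16 (R 4.3.3; filterByExpr, TMM, glmQLFit, glmQLFTest, library block, Benjamini-Hochberg over all genes tested) where a class had at least 20 cells. The library is the pairing, since each library gave both classes. DESeq2 1.42.0 was an alternative. The scripts were tested on simulated data. Of the 4 related lists, up to 3 genes per direction were named in each comparison, those with the largest log2 fold change among genes called with more than 3 counts in each class, and the digestion list is given by counts and summed levels. The 5 genes most like each member are all named.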

Additional observations from a re-analysis of the deposited data

Results flagged for a closer look

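Values outside the compared classes stood out for Hp and for the copy of Ftl1. Hp was read in cells that met no class gate, at 0, 2.9 and 16.9 CPM in libraries 1, 2 and 3, with 23 counts in the 175 ungated cells of library 3. Macrophages of the same libraries had 0.5, 0.8 and 0.5 CPM. Ftl1-ps1, which entered no comparison, was read at 86.0, 164 and 182 CPM in macrophages, a mean of 144 CPM. Like Ftl1 it was lowest in library 1.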

How the results depend on the processing

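Of 31 called results for the 9 genes, 8 were of genes with no profile above the cutoff on low counts in 1 of the classes compared. Tfrc against monocyte-like cells, not among these 8, was above it in only 1 monocyte-like profile. Slc11a1 against dendritic cells was above it in only 2 dendritic profiles, and Slc40a1 with Lyve1 in only 2 Lyve1-negative profiles. Of the 31, 21 were called in the same direction under every setting that tested them and 10 were lost under at least 1. The 21 include genes that passed the filter through 1 class only, so their kept calls are a description. These are Cd163 and Hp against monocyte-like cells, Slc40a1 against dendritic cells, and Hmox1, Cd163, Slc11a1 and Slc40a1 against ILC2. Thinning left Slc40a1 untested against dendritic cells and ILC2 as well as against monocyte-like cells. Of fold changes of single genes under other settings, 676 kept their direction and their side of the threshold, 27 lost a call, 11 gained one and 16 changed sign. The cause was not tested for any change below. Against monocyte-like cells, DESeq2 called 408 genes and cells thinned to 1000 UMIs 211, with 3 of the 9 genes higher and 0 lower after thinning, which left Hp and Slc40a1 untested, 3 higher without the replicate block, and 3 to 5 higher when 1 library was left out. Against dendritic cells, 2258 genes were called without the block and 905 after thinning, and against ILC2 1705 after thinning. With Lyve1, DESeq2 called 1193 genes, the fit without the block 705 and thinned cells 633, and leaving out a library gave 1360 to 2878, the low end without library 2 or 3. There, 3 of the 9 were higher and 0 lower without the block, 0 were lower after thinning, and 0 to 3 were lower when a library was left out. With Timd4, the counts were 33 with DESeq2, 214 with no filter, 1 without the block, 54 with at least 3000 UMIs, 14 after thinning, 463 with at least 2 UMIs for a positive cell, and 1 to 153 when a library was left out, with 1 without library 3 and 153 without library 1. Of the 9, 0 were higher with DESeq2, without the block and after thinning, 0 to 1 when a library was left out, and 3 (Tfrc, Hmox1 and Cd163) with the gate of 2 UMIs. With Ccr2, the counts were 25 with DESeq2, 404 with no filter, 1 without the block, 87 with at least 3000 UMIs, 235 with at most 10% mitochondrial UMIs, 224 with doublets removed, 88 with a stricter gate, 236 with a looser lead, 26 after thinning and 411 with the gate of 2 UMIs. Of the 9, 2 were lower (Cd163 and Blvrb) with RLE scaling, no filter, 10% mitochondrial UMIs, doublets removed and the looser lead, 0 without the block and after thinning, and 3 with the gate of 2 UMIs. With at least 10 cells per profile, which was added after seeing the cell numbers and lets library 1 in, 216 genes were called and Cd163 was still the 1 lower member.

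Slc11a1 against monocyte-like cells changed sign after thinning (0.95) and ran between −0.40 and 0.091 when a library was left out. With Timd4, the values with a library left out ran between −0.13 and 0.40 for Hmox1, −0.21 and 0.28 for Slc40a1, −0.25 and 0.014 for Fth1, −0.096 and 0.028 for Ftl1 and −0.10 and 0.13 for Slc11a1, and thinning gave −0.030 for Blvrb and −0.016 for Slc11a1. With Ccr2, Hmox1 was 0.049 with no filter, 0.068 with at least 3000 UMIs, 0.0054 with the stricter gate, 0.11 after thinning, 0.42 with the gate of 2 UMIs and 0.027 without shared barcodes. Co-detection of Cd163 and Slc11a1 was −1.04 at 500 UMIs, −0.43 at 2000, −0.38 with doublets removed, −0.063 with at most 10% mitochondrial UMIs, −0.27 without shared barcodes and −0.73 with at least 3000 UMIs. Blvrb and Slc11a1 gave 0.41 at 2000 UMIs, 0.48 with doublets removed, 0.65 without shared barcodes and 0.37 with at least 3000 UMIs, and Hmox1 and Slc40a1 gave −0.43 with doublets removed. All of these co-detection settings drew the UMIs anew, and the part of the new draw was not tested. Detection of Hmox1 in macrophages was 23.9% at 500 UMIs and 54.2% at 2000.

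Slc40a1 and Hp rest on few counts, and 3 libraries, 2 with Ccr2, limit every test. Monocyte-like cells numbered 36 in all. Doublets were not removed from the main values, and free RNA was not modelled.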
